A study of Mus musculus with 6 samples.

Results

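The genes described here encode the trypsinogens and chymotrypsinogens, the inactive precursors (zymogens) of the serine proteases trypsin and chymotrypsin. They are the 8 genes *Ctrb1*, *Ctrl*, *Ctrc*, *Prss1*, *Prss2*, *Prss3*, *Try4* and *Try5*, taken by name and matched to Ensembl identifiers among the 37224 genes of a raw count table. RNA was measured in wild-type (wt) C57/Bl6J mouse embryonic pancreas at 13.5 and 15.5 days post coitum (dpc), with 3 samples per stage and no treatment in either group. Each sample pooled pancreata from up to 3 pups, and the samples of a stage were prepared independently. The poly(A) libraries were strand specific, and 10546028 to 16389237 reads per sample were counted on genes. The interval covers the phase in which the epithelium of the pancreas divides into acinar, duct and endocrine cells, and the comparison asks how far the protease precursors of the acinar cells differed between its early and its later days.

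Acinar cells make digestive enzymes and store them in zymogen granules. In the gut, enteropeptidase cuts a short activation peptide from trypsinogen, and trypsin then activates further trypsinogen as well as the precursors of chymotrypsin, elastase, carboxypeptidase and colipase. Trypsin that forms too early inside the pancreas is held in check by the inhibitor Spink1, and chymotrypsin C can degrade trypsinogen. Transcription of these genes in acinar cells depends on the PTF1 complex, in which Ptf1a and an E-protein partner bind an E-box and Rbpj or Rbpjl binds a second sequence close by.

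The tissue carried its defining markers at both stages. The summed level of 6 epithelial markers (*Pdx1*, *Epcam*, *Cdh1*, *Sox9*, *Krt8* and *Krt18*) ranged from 1806 to 1914 normalised counts per 1000000 (CPM) at 13.5 dpc and from 2406 to 2965 at 15.5 dpc. Of the 6, 3 rose and *Sox9* fell (-0.67, edgeR adjusted p = 0.0123), while *Pdx1* and *Epcam* were not called. All 7 acinar markers rose, and their sum went from between 2046 and 2489 CPM to between 6637 and 13110 CPM. Of the 7, the amylase genes *Amy2a1* (2, 0 and 3 counts at 13.5 dpc), *Amy2a2* (10, 14 and 18) and *Amy2a5* (3, 4 and 2) passed the filter on low counts only through their 15.5 dpc samples. Of the 7 mesenchymal markers, 3 fell and 0 rose, with sums of 8567 to 9833 CPM at 13.5 dpc and 6000 to 9530 CPM at 15.5 dpc. In such bulk samples, a different number of cells of a type and a different amount of RNA per cell cannot be told apart for the level of a single gene.

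All 8 zymogen genes were higher at 15.5 dpc, with no overlap between the samples of the stages. Among all 15578 genes that passed the filter on low counts, 11.6% were called higher and 10.7% lower (edgeR quasi-likelihood test, Benjamini-Hochberg adjusted p at or below 0.05), and for 22.8% every 15.5 dpc sample lay above every 13.5 dpc sample. The log2 fold changes of the 8 genes ran from 1.83 (*Ctrl*) to 6.60 (*Try4*) with a median of 5.56, beside a median of -0.01 over all genes tested. Without 15.5 dpc replicate 1, the 5 trypsinogens ran from 3.34 (*Prss2*) to 5.84 (*Try4*), *Ctrb1* stood at 3.29, *Ctrl* at 1.54 and *Ctrc* at 6.43. A log2 fold change above 5 was found for 0.148% of the genes tested, and 5 of the 8 zymogen genes were beyond it. *Try4* and *Ctrc* passed the filter only through their 15.5 dpc samples, so their presence among the genes tested was tied to their being high at that stage.

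**Figure D1:**
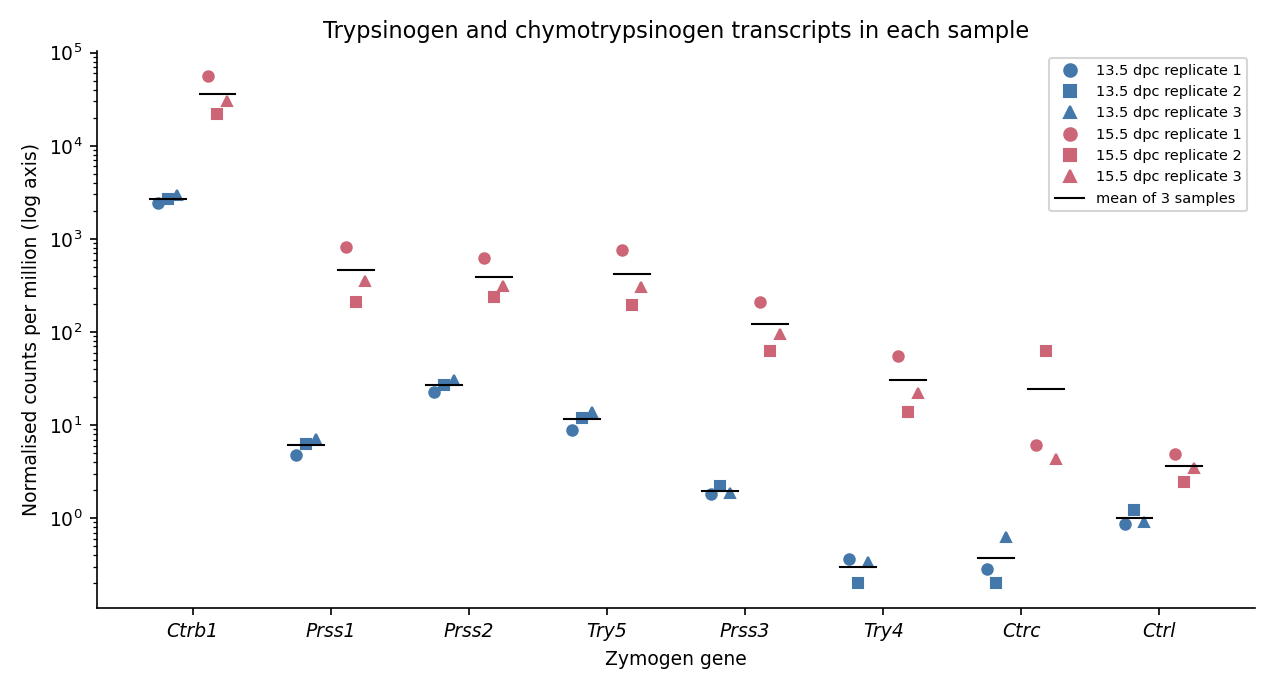
Normalised CPM (log axis) of the 8 zymogen genes in each of the 6 samples, with blue for 13.5 dpc, red for 15.5 dpc, a symbol shape for each replicate number and a black line for the mean of 3 samples. The stages do not overlap for any of the 8 genes, and replicate 1 is the highest 15.5 dpc sample for 7 of them, while replicate 2 is the highest for *Ctrc*.

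The trypsinogens are the substrates of the first activation step. *Prss1*, *Prss2*, *Prss3*, *Try4* and *Try5* lie on chromosome 6 of mm10, between bases 41302269 and 41525079. Their coding sequences are 738 bases long, and those of the 10 possible pairs match at 88.6% to 97.4% of positions. Each carries, starting at coding base 55, the sequence for the run of acidic residues and the lysine after which enteropeptidase cuts. The stretches below are shown because this feature separates the trypsinogens from the 3 chymotrypsinogens, none of whose coding sequences held it in frame. They were read from the GENCODE transcripts of the same build, 5' to 3', and the capitals mark the match to 4 codons that begin with GA followed by 1 that begins with AA, searched on the coding strand in frame.
Prss1: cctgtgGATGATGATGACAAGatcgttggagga
Prss2: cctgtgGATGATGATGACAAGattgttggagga
Prss3: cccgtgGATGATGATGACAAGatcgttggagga
Try4: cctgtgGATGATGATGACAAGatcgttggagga
Try5: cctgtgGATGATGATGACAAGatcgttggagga

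The capital letters are the same in all 5 genes. *Prss2* had the highest level of the 5 at 13.5 dpc, by count and per exon length. Its counts were 315, 401 and 540 in 13.5 dpc replicates 1, 2 and 3, and 5757, 2939 and 3100 in the 15.5 dpc replicates. The level rose from 26.9 ± 4.0 CPM to 392 ± 209 CPM (SD, n = 3), a log2 fold change of 3.87 (SE 0.38, edgeR adjusted p = 0.00106), the smallest among the 5 trypsinogens.

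*Prss1* started lower and rose more. It had 67, 93 and 125 counts at 13.5 dpc, against 7487, 2611 and 3523 counts at 15.5 dpc. That took it from 6.08 ± 1.15 to 461 ± 319 CPM (SD, n = 3), a 75.2-fold difference (log2 6.23, SE 0.57, edgeR adjusted p = 0.000899). By fold change it stood at place 8 of all genes tested.

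*Try5* lay between the former genes at 13.5 dpc and rose as well. The 13.5 dpc samples held 124, 175 and 245 counts and the 15.5 dpc samples 6898, 2385 and 3089. Its log2 fold change was 5.17 (SE 0.55, edgeR adjusted p = 0.00137), from 11.6 ± 2.51 to 419 ± 297 CPM (SD, n = 3).

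*Prss3* and *Try4* were the 2 trypsinogens with the fewest counts at either stage. *Prss3* had 25, 33 and 33 counts at 13.5 dpc against 1916, 767 and 944 at 15.5 dpc, with a log2 fold change of 5.94 (SE 0.53, edgeR adjusted p = 0.000835). *Try4* was close to the limit of detection at 13.5 dpc, with 5, 3 and 6 counts, and reached 507, 170 and 223 counts at 15.5 dpc. Its fitted log2 fold change was 6.60 (SE 0.73, edgeR adjusted p = 0.0015). From the summed counts of 14 and 900 and the effective library sizes, the ratio was 94.2 with an exact 95% interval of 55.9 to 173, which covers counting error only.

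The 15.5 dpc samples differed among themselves by more than the 13.5 dpc samples. In CPM, all 5 trypsinogens were highest in 15.5 dpc replicate 1 and lowest in replicate 2. The ratio of these samples was 2.65 for *Prss2*, 3.38 for *Prss3*, 3.88 for *Prss1*, 3.91 for *Try5* and 4.04 for *Try4*. The marker sums moved over the same samples. The acinar sum was 13110, 6637 and 11470 CPM in replicates 1, 2 and 3, the mesenchymal sum was 6000, 9530 and 8149 CPM, and the sum of 6 erythroid genes was 3454, 1229 and 1995 CPM. The log2 ratio of replicate 1 to replicate 2 also fell with exon length over genes (Spearman's rho -0.58, a description over genes), and the zymogen genes other than *Ctrc* span only 801 to 902 exon bases. The part of tissue make-up or of transcript length in these ratios was not tested. Without 15.5 dpc replicate 1, the log2 fold changes were 5.52 for *Prss1*, 5.30 for *Prss3*, 5.84 for *Try4* and 4.42 for *Try5*, and each was still called.

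The make-up of the trypsinogen counts differed between the stages in all samples. Shares within a sample do not depend on the scaling between libraries. *Prss2* held 58.8%, 56.9% and 56.9% of the 5 trypsinogen counts in the 13.5 dpc samples and 25.5%, 33.1% and 28.5% in the 15.5 dpc samples. *Prss1* lay the other way, with 12.5%, 13.2% and 13.2% and then 33.2%, 29.4% and 32.4%. The share of *Prss3* was 4.27% ± 0.690 at 13.5 dpc and 8.60% ± 0.0996 at 15.5 dpc (SD, n = 3). That of *Try4* was 0.664% ± 0.255 and 2.07% ± 0.166, and that of *Try5* was 24.6% ± 1.36 and 28.6% ± 1.85. None of these 5 shares overlapped between the stages, and each exact two-sided permutation test over samples gave p = 0.1, the smallest value that 3 against 3 samples allow, so that no such test could pass 0.05 (0.1 after adjustment over the 5 genes).

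As a ratio, *Prss1* had 0.213, 0.232 and 0.231 counts for each count of *Prss2* at 13.5 dpc, against 1.30, 0.888 and 1.14 at 15.5 dpc. Among these 5 genes, *Prss2* thus had the most counts in every 13.5 dpc sample, whereas *Prss1* led in 15.5 dpc replicates 1 and 3 and *Prss2* in replicate 2. The ratio of *Prss1* to *Try5*, 0.540, 0.531 and 0.510 at 13.5 dpc, was 1.09, 1.09 and 1.14 at 15.5 dpc. Both ratios had an exact permutation p of 0.1.

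**Figure D2:**
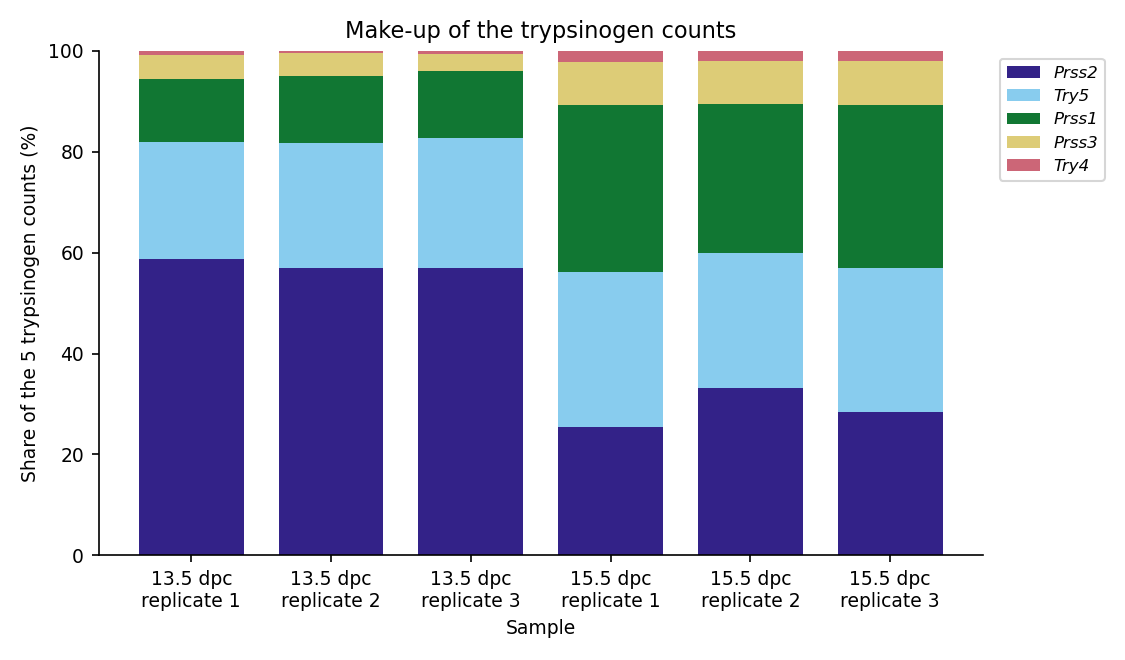
Share of each gene in the summed counts of the 5 trypsinogen genes (y axis, percent) in each sample. *Prss2* holds 56.9% to 58.8% at 13.5 dpc and 25.5% to 33.1% at 15.5 dpc, and *Prss1* holds 12.5% to 13.2% and then 29.4% to 33.2%.

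These trypsinogen values carry a limit of sequence. The authors counted only reads with a single best place in the genome, and near-identical copies lose reads by that rule. Of all 50-base windows of its transcripts, *Prss3* shared 66.1% with other genes, *Try4* 65.6%, *Prss1* 54.9% and *Try5* 47.6%, but *Prss2* only 7.83%. The read length is not given in the sources used here. Of 100-base windows, *Prss3* shared 45.0%, *Try4* 30.2%, *Prss1* 21.8%, *Try5* 22.5% and *Prss2* 0%. Values per unshared window below rest on windows of 50 bases. The closest coding sequence was *Gm10334* for *Prss3* (99.1% identity), *Gm5771* for *Prss1* (97.6%), *Try5* for *Try4* and the reverse (97.4%), and *Try4* for *Prss2* (91.9%). Levels of the first 4 genes relative to *Prss2* are therefore uncertain. When counts were taken per unshared window, *Prss2* held 42.1% ± 0.869 of the trypsinogen total at 13.5 dpc and 17.2% ± 2.62 at 15.5 dpc, *Prss1* held 19.6% ± 0.575 and 38.8% ± 1.69, and *Try5*, at 28.5% ± 1.59 and 26.8% ± 1.24 (SD, n = 3), overlapped between the stages (exact permutation p = 0.2).

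The chymotrypsinogens cleave after aromatic and large hydrophobic residues once activated, and their genes are not clustered. *Ctrb1* and *Ctrl* lie on chromosome 8 (bases 111686510 to 111691010 and 105931994 to 105933862 of mm10, minus strand), and *Ctrc* lies on chromosome 4 (bases 141814962 to 141846359, minus strand). Their coding sequences match at 55.2% to 64.6% of positions, and neither *Ctrb1* nor *Ctrl* shared any 50-base window with another gene.

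*Ctrb1*, which encodes chymotrypsinogen B, outweighed the other 7 genes together in every sample. It held 98.2% ± 0.123 of the summed zymogen counts at 13.5 dpc and 96.3% ± 0.448 at 15.5 dpc (SD, n = 3). The stages did not overlap in this share (exact permutation p = 0.1, 0.133 adjusted over the 8 genes). The share of *Prss2* in the same sum, 0.982% ± 0.0517 at 13.5 dpc and 1.04% ± 0.0513 at 15.5 dpc, did overlap (exact permutation p = 0.3, 0.343 adjusted). Its own counts were 33531, 39490 and 51746 at 13.5 dpc, against 512166, 269452 and 305972 at 15.5 dpc, a log2 fold change of 3.75 (SE 0.35, edgeR adjusted p = 0.000957). This was near that of *Prss2*, and the number of *Ctrb1* counts for each *Prss2* count was 106, 98.5 and 95.8 at 13.5 dpc, against 89.0, 91.7 and 98.7 at 15.5 dpc. The mean log2 of that ratio differed by only -0.11 between the stages, and its values overlapped (exact permutation p = 0.3).

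*Ctrl*, which encodes a chymotrypsin-like protease, was low throughout. It had 12, 18 and 16 counts at 13.5 dpc, against 45, 30 and 35 at 15.5 dpc. The log2 fold change of 1.83 (SE 0.32, edgeR adjusted p = 0.00821) was the smallest among the 8 genes, from 0.999 ± 0.194 to 3.61 ± 1.26 CPM (SD, n = 3). *Ctrb1* had 2190 to 3230 counts for each *Ctrl* count at 13.5 dpc and 8740 to 11400 at 15.5 dpc, without overlap (exact permutation p = 0.1).

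*Ctrc*, the gene of chymotrypsin C, differed from the other 7 genes in 1 library. Its counts were 4, 3 and 11 at 13.5 dpc, against 56, 777 and 44 at 15.5 dpc, so that replicate 2, the lowest 15.5 dpc sample for the other genes, was here the highest by far. With all samples the log2 fold change was 5.97 (SE 1.35, edgeR adjusted p = 0.0202), and without 15.5 dpc replicate 2 it was 3.74 (SE 0.38, edgeR adjusted p = 0.000204). The ratio of the summed counts was 71.4 with all samples and 13.4 (exact 95% interval 8.05 to 23.5, counting error only) without that library. Omission of any 1 of the 13.5 dpc samples ended the call, with adjusted p of 0.0819 to 0.0846 in edgeR, and DESeq2 gave no adjusted p for the gene.

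The excess in replicate 2 was narrow. Among 12577 genes with at least 50 counts in that sample, *Ctrc* ranked 2 by the ratio of its CPM there to the higher of the other 15.5 dpc samples, with 0.05 CPM added to both (10.2), behind the zinc finger gene *Zfp990* (0, 52 and 1 counts in replicates 1, 2 and 3), and the next gene, *Ulbp1*, had a ratio of 4.01. Both *Ctrc* and *Zfp990* lie on chromosome 4, *Zfp990* at bases 145510759 to 145539188. *Cela2a*, the elastase gene beside *Ctrc*, had 10011, 4842 and 4724 counts at 15.5 dpc and no such excess. The annotation of *Ctrc* has 2 features that bear on its count. Its exons share 305 of 1428 bases with *Cela2a* on the same strand, where a read cannot be given to either gene alone, and its coding transcript is drawn with a gap of only 2 bases between neighbouring exons (chr4:141845188-141845189). The part of the shared exon bases, of the gap or of a difference in genotype among the pooled embryos in the value of replicate 2 was not tested.

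Per kilobase of exon, the order of the genes changed with stage. At 13.5 dpc the levels in CPM per kilobase were 3021 for *Ctrb1*, 33.0 for *Prss2*, 12.8 for *Try5*, 7.56 for *Prss1*, 2.35 for *Prss3*, 1.12 for *Ctrl*, 0.377 for *Try4* and 0.261 for *Ctrc*. Neighbours in this order did not overlap over the 3 samples, except *Try4* and *Ctrc*. At 15.5 dpc the order was *Ctrb1* (40730), *Prss1* (572), *Prss2* (481), *Try5* (464), *Prss3* (145), *Try4* (38.1), *Ctrc* (17.1) and *Ctrl* (4.07). Here the ranges over the samples overlapped for *Prss1*, *Prss2* and *Try5*, for *Try5* with *Prss3*, for *Try4* with *Ctrc*, and for *Ctrc* with *Ctrl*. The genes share the libraries, however, and within each 15.5 dpc sample *Try5* had 3.60, 3.11 and 3.27 counts for each count of *Prss3*, so that this pair kept its order in all 3. *Ctrb1* moved from place 4 to place 1 of all genes in the table, *Prss2* from 2069 to 90, *Prss1* from 7673 to 69 and *Try5* from 5397 to 100.

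As a share of all counts, the 8 genes held 0.264%, 0.295% and 0.322% in the 13.5 dpc samples and 4.95%, 2.23% and 3.01% in the 15.5 dpc samples. The exact 95% binomial interval was widest for 15.5 dpc replicate 1, at 4.94% to 4.97%, and covers counting error only. The 5 trypsinogens contributed 0.00416% to 0.00579% at 13.5 dpc and 0.0710% to 0.209% at 15.5 dpc. For the summed share the stages did not overlap, with a difference of 3.10 percentage points (exact permutation p = 0.1).

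The regions before the start sites are shown for *Prss1* and *Prss2*, which had the most counts of the 5 trypsinogens in at least 1 of the 15.5 dpc samples, for *Try4*, with the highest fold change, and for *Ctrb1*, since these genes rose together. RefSeq (GRCm38.p6) held an entry for 6 of the 8 genes, and *Ctrc* and *Try5* had none in the table used here. The 250 bases before the annotated start are printed 5' to 3' on the strand of the gene, and capitals mark matches to CACCTG, an E-box, and TGGGAA, a core of the Rbpj site, on either strand (CAGGTG and TTCCCA when on the other), and to TATAAA on the printed strand.
Prss1, chr6:41458680-41458929, plus strand: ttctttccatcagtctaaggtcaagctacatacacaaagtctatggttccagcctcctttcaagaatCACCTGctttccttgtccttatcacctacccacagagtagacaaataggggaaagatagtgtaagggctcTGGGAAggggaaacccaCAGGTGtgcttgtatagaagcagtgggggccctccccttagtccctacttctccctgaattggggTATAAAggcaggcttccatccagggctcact
Prss2, chr6:41521526-41521775, plus strand: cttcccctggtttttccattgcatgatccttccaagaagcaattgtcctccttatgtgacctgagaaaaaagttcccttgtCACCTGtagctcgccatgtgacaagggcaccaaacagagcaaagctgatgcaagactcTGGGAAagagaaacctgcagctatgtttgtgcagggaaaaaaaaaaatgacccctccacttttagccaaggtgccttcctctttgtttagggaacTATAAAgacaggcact
Try4, chr6:41302022-41302271, plus strand: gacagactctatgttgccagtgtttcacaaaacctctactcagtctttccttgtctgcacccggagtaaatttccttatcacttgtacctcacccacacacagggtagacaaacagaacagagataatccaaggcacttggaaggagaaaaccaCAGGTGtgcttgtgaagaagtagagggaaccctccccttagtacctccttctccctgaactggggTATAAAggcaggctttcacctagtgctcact
Ctrb1, chr8:111691011-111691260, minus strand: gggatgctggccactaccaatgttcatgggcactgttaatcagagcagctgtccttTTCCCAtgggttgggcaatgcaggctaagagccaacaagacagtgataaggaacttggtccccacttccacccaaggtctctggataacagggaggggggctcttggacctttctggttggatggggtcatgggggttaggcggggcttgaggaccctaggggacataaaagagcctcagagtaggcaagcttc

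In the 300-base window of 250 bases before to 50 after the start, *Prss1* and *Prss2* each held all 3 motifs, as did 0.447% of the 32851 promoters in the table. CACCTG was found in 20.2% of all promoters, TGGGAA in 25.6% and TATAAA in 8.32%. *Prss3* and *Try4* held CACCTG and TATAAA without TGGGAA, *Ctrl* held 2 CACCTG and 1 TGGGAA, and *Ctrb1* held only TGGGAA of these 3 motifs. The general E-box form CANNTG, with N for any base, was found in 72.3% of all promoters. *Ctrb1* held 1 such match, which stands just before TTCCCA in the sequence above. *Prss1* held 2, *Prss2*, *Prss3* and *Try4* held 3 each, and *Ctrl* held 4, with the CACCTG matches included. In *Prss1* the sequences TGGGAA and CAGGTG stand close together, and *Try4* has CAGGTG and TATAAA at the same distances from its start (-96 and -31) as *Prss1*. A match describes the letters and is not a measured binding site.

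The wider trypsinogen family rose with the named genes. Of 10 other trypsinogen-like loci listed, 7 were in the table, 5 were tested and 5 rose, with log2 fold changes of 4.53 to 6.14. *Try10*, which encodes a further trypsinogen, had 102, 158 and 206 counts at 13.5 dpc, against 8179, 3155 and 4375 at 15.5 dpc (log2 fold change 5.73, SE 0.52, edgeR adjusted p = 0.000849). Relative to *Prss2* it had 0.324 to 0.394 counts at 13.5 dpc and 1.07 to 1.42 at 15.5 dpc. *Gm5771*, the near copy of *Prss1*, reached 2056, 724 and 969 counts from 10, 40 and 33, and *Gm10334*, the near copy of *Prss3*, reached 1003, 397 and 500 from 24, 21 and 26. Without 15.5 dpc replicate 1 the log2 fold changes were 5.11 for *Try10*, 5.42 for *Gm5771* and 4.72 for *Gm10334*, and each was still called. *Gm2663* and *1810009J06Rik*, with at most 11 counts in any sample, were not tested. *Gm5409*, with 1, 1 and 3 counts at 13.5 dpc and 43, 21 and 25 in the 15.5 dpc samples, passed the filter only through the later stage, and so did *Gm5771*, 1 of whose 13.5 dpc samples was just under it. With at least 10 counts required in every sample, 4 of the list were called. For these copies the limit of shared sequence given above holds as well.

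The family sits inside the T cell receptor beta locus, which gives a view of its neighbours. Between bases 40964772 and 41704339 of chromosome 6, 12 trypsinogen-like genes were annotated, and all 10 that were tested rose, among them *Try4*, *Gm5409* and *Gm5771*, which were tested only through their 15.5 dpc samples. Of the 45 other genes there, 40 had 10 counts or fewer in every sample and 4 were tested. *Ephb6*, an Eph receptor gene, fell by 0.61 on the log2 scale (edgeR adjusted p = 0.0301, and 0.0676 to 0.122 without any 1 of the 13.5 dpc samples or 15.5 dpc replicate 3, and 0.0607 with the replicate block), and *Trpv6* and *Kel* were not called. *Trbc2*, a constant region of the T cell receptor that follows *Prss2* on the same strand, rose from 25, 27 and 48 to 320, 183 and 194 counts (log2 fold change 3.41, SE 0.37, edgeR adjusted p = 0.0015). It was singled out after its values were seen.

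Among 9 proenzymes that trypsin activates, 8 were tested and all 8 rose, 1 of which (*Cela3a*) had almost no counts at 13.5 dpc. *Cela3b* (6.41), *Cela2a* (6.17) and *Cpb1* (6.15) had log2 fold changes near that of *Prss1*, whereas those of *Cpa1* (2.04), *Cela1* (2.98) and the colipase gene *Clps* (3.39) were below that of *Prss2*. Without 15.5 dpc replicate 1, *Cela3b* stood at 5.64, *Cela2a* at 5.56 and *Cpb1* at 5.55. *Cela3a*, with 1, 1 and 0 counts at 13.5 dpc and 58, 33 and 29 counts in the 15.5 dpc samples, passed the filter only through the later stage, where it is high, and its ratio of summed counts, scaled by the effective library sizes, was 87.9 (exact 95% interval 23.8 to 734, counting error only). *Cpa1* was already at 1798 ± 187 CPM at 13.5 dpc (SD, n = 3). *Ctrb1* had 1.46 to 1.55 counts for each *Cpa1* count at 13.5 dpc and 3.56 to 6.03 at 15.5 dpc (exact permutation p = 0.1). The phospholipase gene *Pla2g1b* had at most 13 counts in any sample and was not tested.

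The genes that start, restrain or sense trypsin did not move together. Of 13 listed, 12 were tested, 4 rose, 6 fell and 2 were not called. *Spink1*, the trypsin inhibitor of acinar cells, had 1061, 1289 and 1379 counts at 13.5 dpc, against 6994, 3290 and 3876 at 15.5 dpc (log2 fold change 2.55, SE 0.37, edgeR adjusted p = 0.00391). *Serpini2*, a pancreatic serpin, rose by a log2 fold change of 2.45. The summed trypsinogen counts per *Spink1* count were 0.505, 0.547 and 0.688 at 13.5 dpc, against 3.23, 2.70 and 2.81 at 15.5 dpc, with no overlap between the stages.

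The 5 *Serpina1* genes, which encode the plasma antitrypsins made chiefly by liver, all fell, from -1.77 (*Serpina1c*) to -3.27 (*Serpina1e*). The macroglobulin gene *A2m* fell by 1.04 (edgeR adjusted p = 0.0491), a call lost without any 1 of the 13.5 dpc samples or without 15.5 dpc replicate 3 (adjusted p of 0.0860 to 0.159). The *Serpina1* copies are near-identical and their separate values are uncertain. Of 4 liver markers, *Afp* fell (-0.66, edgeR adjusted p = 0.0291), *Apoa1* (-0.88), *Alb* (-0.61) and *Ttr* (0.48) were not called, and their sum, to which *Ttr* gave the most counts, was 474 to 526 CPM at 13.5 dpc and 455 to 853 CPM at 15.5 dpc. The part of liver transcripts in the *Serpina1* values was not tested. Of the lysosomal cathepsins, *Ctsl*, whose product degrades trypsinogen, rose by a log2 fold change of 1.30 and *Ctsd* by 0.63, while *Ctsb*, whose product can activate trypsinogen, stood at 0.27 and was not called (edgeR adjusted p = 0.0803). It was called higher by DESeq2 (0.0440), with the length trend removed (0.0305) and without 15.5 dpc replicate 2 (0.0147). The call of *Ctsd* was lost without any 1 of the 13.5 dpc samples or without 15.5 dpc replicate 3 (adjusted p of 0.101 to 0.139), and with library size only (0.0578). *Tmprss15*, the enteropeptidase gene of the duodenum, had at most 5 counts in any sample and was not tested, and the trypsin-sensing receptor gene *F2rl1* stood at 0.16 (adjusted p = 0.565).

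**Figure D3:**
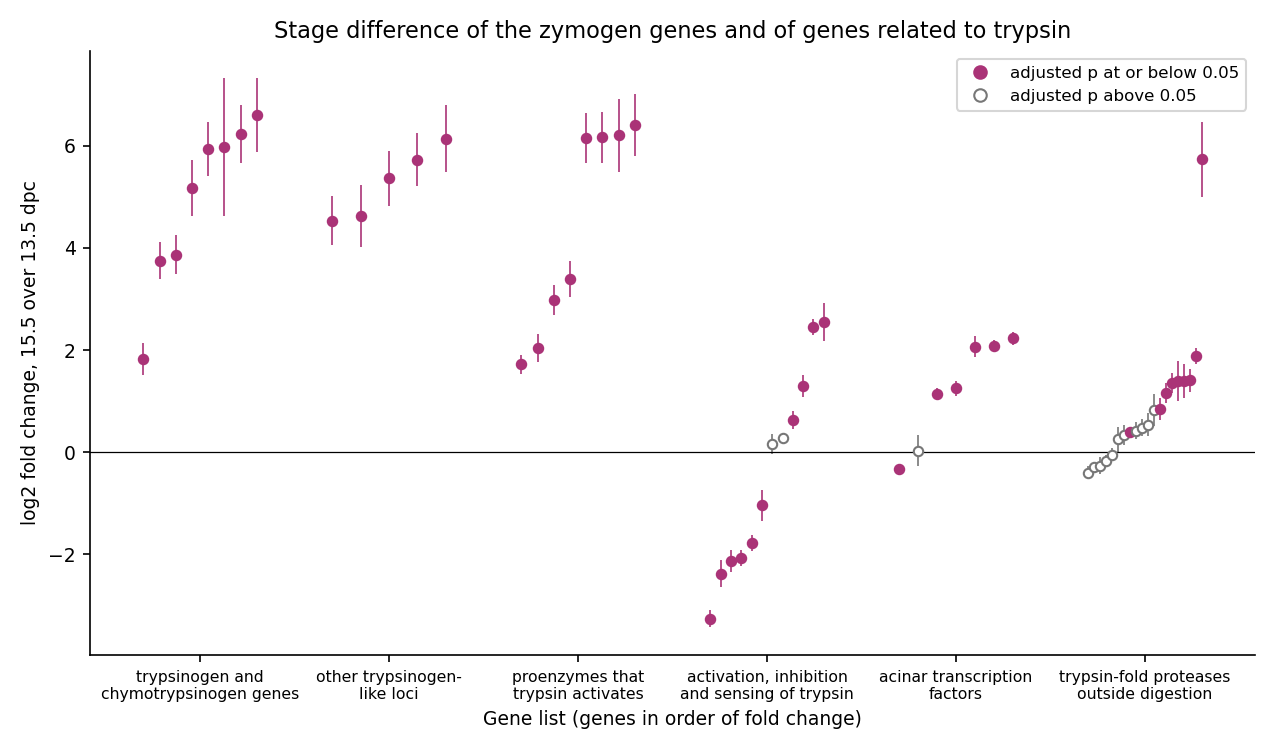
log2 fold change from 13.5 to 15.5 dpc (y axis, with SE as bars) of the 8 zymogen genes and of the tested genes of 5 related lists, in order of fold change within each list. Filled points have an adjusted p at or below 0.05. The zymogen genes span 1.83 to 6.60, the 5 other trypsinogen-like loci 4.53 to 6.14, and the genes acting on trypsin -3.27 to 2.55.

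Of the 7 transcription factors of acinar cells, 5 rose, 1 fell and 1 was not called, with log2 fold changes that were all below those of the trypsinogens. *Ptf1a* (2.07, SE 0.20), *Rbpjl* (2.08, SE 0.12) and *Bhlha15* (2.23, SE 0.13), which codes for the secretory cell factor Mist1, rose most, followed by *Xbp1* (1.25) and *Gata4* (1.15). *Rbpj*, whose protein is replaced by Rbpjl in the PTF1 complex of mature acinar cells, fell by 0.33 (edgeR adjusted p = 0.0481). That call was lost when any 1 of the 13.5 dpc samples was left out, with adjusted p of 0.0969 to 0.179, without 15.5 dpc replicate 3 (0.173), with the length trend removed (0.189), with the replicate block (0.102), with no filter (0.0685) and with DESeq2 size factors (0.0538). *Nr5a2* had a value of 0.03, of either sign under other scalings, and its 15.5 dpc counts of 471, 1682 and 955 were lowest in replicate 1 and highest in replicate 2.

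Serine proteases that do not serve digestion were a mixed group. Of 25 listed, 20 were tested, 9 rose and 0 fell, with a median log2 fold change of 0.51. The tissue kallikrein gene *Klk1* rose by 5.73 (SE 0.74, edgeR adjusted p = 0.00259), from 4, 5 and 10 to 383, 113 and 165 counts, and by 4.92 without 15.5 dpc replicate 1. It too passed the filter only through its 15.5 dpc samples. The membrane proteases *Tmprss4* (1.89), *Prss8* (1.36) and *Hpn* (1.16) rose less, and *Plau* and *Plat*, the plasminogen activators, were not called. *Plat*, at -0.40, was called lower under 6 alternatives, with adjusted p of 0.0300 to 0.0482. With library size only, 8 genes of the list were higher and 3 lower. The count of 9 became 5 when 13.5 dpc replicate 1, 13.5 dpc replicate 3 or 15.5 dpc replicate 3 was left out.

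The 5 genes outside the zymogen group whose profile over the 6 samples lay nearest to the mean profile of the 8 were *Ass1*, *Amy2a2*, *Sycn*, *Gm5424* and *Arhgdig*. Likeness was the root mean square distance between centred log2 CPM values, and it was 0.179, 0.179, 0.256, 0.284 and 0.294. *Amy2a2* encodes pancreatic amylase and *Sycn* a zymogen granule protein. *Amy2a2* had 10, 14 and 18 counts at 13.5 dpc, against 335, 218 and 267 at 15.5 dpc, and *Sycn* had 39, 38 and 57 against 1347, 511 and 540 (log2 fold change 4.80, and 4.03 without 15.5 dpc replicate 1). The profile was also drawn without *Ctrc*, an alternative chosen after seeing the data. The nearest genes were then *Sycn*, *Klk1*, *Zg16*, *Amy2a2* and *Amy2-ps1*, of which 2 were shared with the first set. *Zg16* (1, 0 and 1 counts) and *Amy2-ps1* (3, 1 and 2) were near 0 at 13.5 dpc, where the 0.5 CPM added before taking logs largely sets the profile of both. They entered only through the 15.5 dpc samples, as did *Klk1* and *Amy2a2*.

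Apart from the study's thresholds, the stage difference of 7 of the 8 genes, all but *Ctrc*, was called under each alternative analysis that could be run. Among the other scalings, filters and tests, the smallest values of these 7 came from scaling the libraries to 5 epithelial genes in place of all genes, which moved the median of all genes tested to -0.59, and there the zymogen genes still differed by log2 1.23 (*Ctrl*) to 5.95 (*Try4*). Without normalisation factors that median was -0.22. With the study's thresholds, 7 of the 8 genes were called, and *Ctrl* was not, as its counts were too low.

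**Figure D4:**
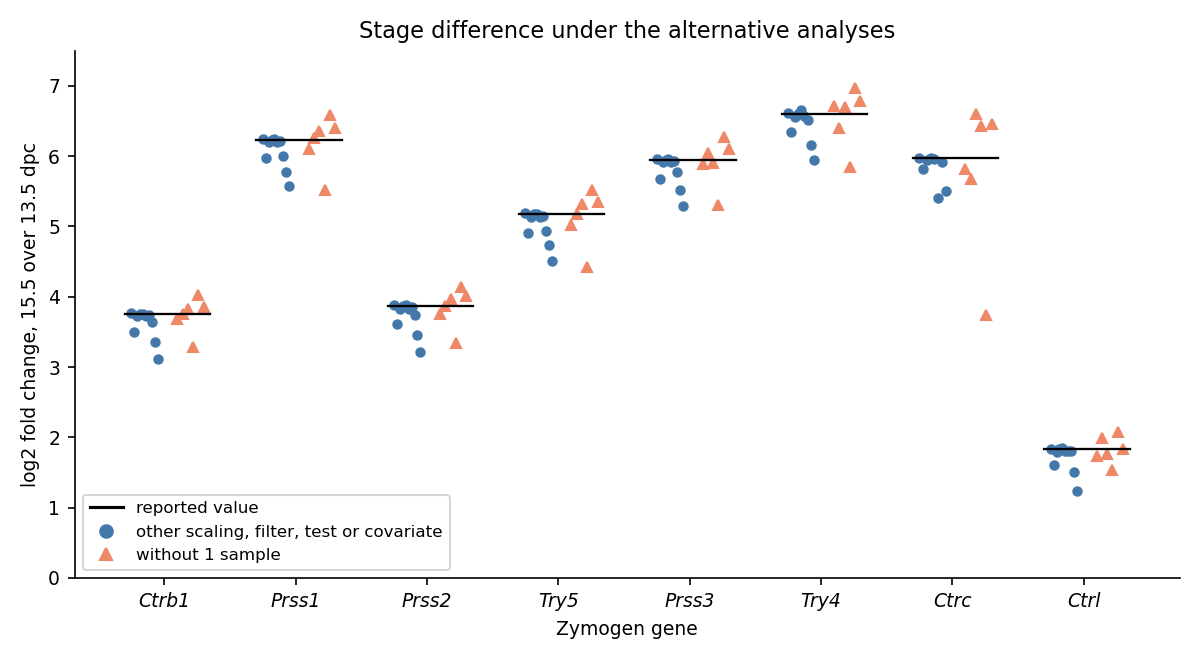
log2 fold change from 13.5 to 15.5 dpc (y axis) of each zymogen gene as reported (black line), under other scalings, filters, tests or covariates (blue points) and with 1 sample left out (orange triangles). *Ctrc* has the widest range, from 3.74 to 6.60, and the point at 3.74 is the fit without 15.5 dpc replicate 2.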

How the data were processed

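The authors prepared strand-specific poly(A) libraries, aligned single reads to mm10 with GSNAP and used featureCounts 1.4.6 to count reads with a unique alignment over Ensembl genes. They deposited raw counts, without normalisation, and the exon length of each gene. Whether counting used the strand is not given in the sources used here. The 8 genes and 5 related lists were chosen with earlier results of these data known.

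Symbols came from GENCODE annotation of the same build. The counts went into edgeR 4.0.16 (R 4.3.3): filterByExpr, TMM factors, quasi-likelihood test of stage without covariates over 6 samples, Benjamini-Hochberg adjustment over 15578 genes. Standard errors are the log2 fold change over the root of F. CPM use effective library sizes, with a pseudocount of 0.5 CPM for profile distances. Shares and ratios were compared with exact two-sided permutation tests over samples. Named were all 8 genes, list genes with the largest changes or named in the paper, and the 5 nearest profiles. Other genes were singled out after their values were seen. The steps were tested on simulated data. Alternatives were DESeq2 1.42.0, other scalings and filters, a replicate block, a length trend removed by lowess (span 0.5), the study's thresholds, and each sample left out. Results for some genes of the lists are not reported singly.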

Additional observations from a re-analysis of the deposited data

How the results depend on the processing

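Of the named genes, 45 were fitted under up to 16 alternatives each, giving 678 values. Other named genes, among them some of the nearest profiles, were not among the 45. Of the values, 636 kept their direction and their side of the threshold, 25 lost the call, 9 gained one and 8 changed sign. Both were kept under every alternative run by 35 of the 45 genes. Changes of sign were found for *F2rl1* with library size only (-0.0398), and for *Nr5a2* with library size only (-0.153), upper quartile factors (-0.0020) and the replicate block (-0.0717). With 1 sample left out, *Nr5a2* ranged from -0.320 to 0.323 and *Plau* from -0.109 to 0.0350. The cause was not tested. Over the same omissions the log2 fold change of *Ctrc* ranged from 3.74 to 6.60, the called proteases outside digestion from 5 to 12, and all genes called from 1235 to 7620. With the study's thresholds (adjusted p at or below 0.1, over 100 normalised counts, fold under 0.6 or over 1.6), 1539 genes were called against 3467, and 6 against 10 of the genes acting on trypsin.

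In the share of the zymogen counts, *Ctrc* differed by 0.0876 percentage points and by -0.00118 without 15.5 dpc replicate 2, with a range of -0.00118 to 0.133 over the omissions. *Prss2* differed by 0.054 points among all 8 genes, of which *Ctrb1* dominates the sum, by -28.5 among the 5 trypsinogens and by -24.9 per unshared window, and *Try5* by -1.67 per unshared window. The sums over 5 genes and the window counts were added after seeing the data. Whether equal replicate numbers pair samples of the stages is not given in the labels. The deviations of equal numbers correlated at 0.273, -0.277 and 0.0451, and so few samples cannot decide it. With library size only, 1133 of 4085 called genes were higher, against 1805 of 3467. With the replicate block 2676 genes were called, and all 8 zymogen genes were. DESeq2 gave no adjusted p for *Ctrc*, and a minimum of 10 counts in every sample removed *Ctrc* and *Try4*. At 13.5 dpc, 3 to 11 counts of these genes limit their ratios.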

Other observations

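T cell genes were looked at beside *Trbc2*. Summed over 8 T cell genes, chosen after the value of *Trbc2* was seen, the level was 14.3 to 15.4 CPM at 13.5 dpc and 18.53 to 24.97 CPM at 15.5 dpc, and 1 of the 8 rose. That gene was *Cd3e*, with 30, 47 and 39 counts at 13.5 dpc, against 123, 116 and 107 at 15.5 dpc. *Cd3d* had at most 2 counts in any sample, *Cd3g* at most 6 and *Cd8a* at most 1. *Lck* had 152, 155 and 176 counts at 13.5 dpc against 89, 80 and 93 at 15.5 dpc and was not called. *Trac* had 2, 3 and 4 counts at 13.5 dpc against 2, 9 and 15 at 15.5 dpc. *Cd4* had 5, 5 and 21 against 6, 17 and 7, and *Cd247* had 8, 11 and 8 against 3, 6 and 6. *Trac*, *Cd4* and *Cd247* were too low to be tested. The source of the *Trbc2* reads was not tested.

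Around *Ctrc*, none of the neighbouring genes with at least 60 counts showed an excess in 15.5 dpc replicate 2 like that of *Ctrc*. *Casp9*, which shares 94 exon bases with *Ctrc* on the opposite strand, had 303, 500 and 370 counts in 15.5 dpc replicates 1, 2 and 3, and *Efhd2*, on the other side, had 2035, 2005 and 1922.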
